A study of Saccharomyces cerevisiae with 72 samples.

Results

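The outer kinetochore is the layer of the chromosome-attachment machine that holds spindle microtubules. The genes described here are a list of names, drawn up with earlier results of these data known, and no value was used as a criterion: *NDC80* (YIL144W) and the 3 other subunit genes of the Ndc80 complex, *NUF2* (YOL069W), *SPC24* (YMR117C) and *SPC25* (YER018C), the MIND complex genes *MTW1* (YAL034W-A), *DSN1* (YIR010W) and *NNF1* (YJR112W), the DASH complex genes *DAM1* (YGR113W) and *DUO1* (YGL061C), and *CNN1* (YFR046C). They are 10 of the 6660 genes in the table, and all 10 had a value in every condition. The RNA-seq experiment sampled diploid budding yeast of the S288c background at 0, 2, 4, 6, 8 and 12 h in sporulation medium. The 2 genotypes, *kar4*Δ/Δ (homozygous deletion of *KAR4*, a member of the yeast mRNA methyltransferase complex; called the mutant below) and wild type, were each sampled in 3 promoter backgrounds. In strains with both Pzev promoters, *IME1*, the master activator of meiotic entry, and *RIM4*, which encodes a translational repressor of meiotic mRNAs, were driven by an estradiol-inducible promoter. In Pzev-*IME1* strains only *IME1* was so driven, and the remaining strains had endogenous promoters. The Pzev alleles are heterozygous in the strain list, next to an untouched copy, and act through the Z3EV activator expressed from an *ACT1* promoter. In the listed Pzev strains the *kar4* deletions carry selectable markers that wild type lacks, so markers and genotype cannot be told apart there. Which listed strains were sequenced is not given in the sources used here.

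Each condition is 1 value per gene, made by the authors from 2 biological replicates: the log2 fold change against the reference condition, which is the 0 h sample of wild type carrying its own promoters. On this scale 1 is a 2-fold higher level and -1 a 2-fold lower one. No replicate values, counts or errors were used, because the table holds none, so depth is unknown and no difference below could be tested against the spread between replicates. Sizes are given in place of tests, and 2-fold is the size counted. As a check of the labels, the log2 difference of *KAR4* (mutant minus wild type) lay between -8.68 and -3.97 in 17 of 18 pairs of conditions. The exception was 0 h with endogenous promoters, at -0.55, so the genotype label is not borne out by *KAR4* in that condition. The SD of the values over 6496 genes ran between 0.43 and 2.11 from condition to condition, and was highest in wild type with both Pzev promoters at 12 h. Quantile normalization, which gives every condition the same distribution of values, was therefore run as an alternative, and its value stands beside each direction that it turns. In bulk RNA, fewer cells in a state and less RNA per cell cannot be told apart.

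The Ndc80 complex is a rod with 2 ends. *NDC80* and *NUF2* encode the end that binds microtubules, and *SPC24* and *SPC25* the end that docks on the kinetochore, either on the MIND complex or on Cnn1p, the yeast CENP-T. The DASH complex, with Dam1p and Duo1p among its subunits, forms rings around the microtubule and holds on to its shrinking tip. *NDC80* is known for a meiotic switch in budding yeast. In meiotic prophase an upstream promoter driven by Ime1p and Ume6p makes a long transcript from which Ndc80p is hardly translated and which represses the promoter next to the coding sequence, and the kinetochore loses its outer layer. Later Ndt80p, the activator of middle meiotic genes, turns on the short, translated transcript. The gene-level value used here sums both transcripts, so a high *NDC80* value does not say which of them was present.

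*NDC80* lies on chromosome IX at 78074 to 80149 on the plus strand of the R64 assembly, the same as the sacCer3 build the authors mapped to. The interval to its upstream neighbour *PAN6* is 790 bases, the longest among the 10 genes. The partner genes *NUF2*, *SPC24* and *SPC25* have 216, 252 and 172 bases. No member's coding sequence overlaps another annotated gene. Binding motifs of meiotic and cell cycle regulators were searched on both strands of the 600 bases before each start codon, in the members and in all 6002 genes with such a window. The core of the middle sporulation element that Ndt80p binds, CACAAA, was found in 5 of the 10 members and in 34.3% of all genes. These are the 30-base stretches around it, shown because they compare *NDC80* with other members, read 5′ to 3′ on each gene's own strand, with the core in capitals (TTTGTG where it lies on the opposite strand):
NDC80, chrIX:77869-77898: gaatgatatagtCACAAAactaatatttcc
MTW1, chrI:79510-79539: aaaatgtgaaccTTTGTGtattagtttcaa
DSN1, chrIX:375285-375314: aaagcaaaaattCACAAAtgataaacaaat
DSN1, chrIX:375340-375369: aattgataaaagCACAAAgtaccaggcaga
DSN1, chrIX:375391-375420: tattgtaccacaCACAAAtttttctttatt
NNF1, chrX:636670-636699: attgtatcagccTTTGTGcatttagtatct
CNN1, chrVI:244349-244378: cctcgaggagtaTTTGTGcgatgacattga
The sequences are from the RefSeq R64 genome, and *CNN1* is on the minus strand. The *NDC80* match began 193 bases before the start codon. The longer element GNCACAAA was added to the search after the data were seen. *NDC80* was the single member with it, and 1 of 10 is near the 8.16% of all genes that had it. The other 3 genes of its complex had no match to CACAAA within 600 bases. The core of URS1, the site of Ume6p, GGCGGC, was found in *NNF1*, 413 bases before the start codon, and in 11.4% of all genes. *NDC80* had no exact match to it within 600 or 1000 bases, and sites that differ from this core were not searched. The G1 element MCB, ACGCGT, which contains its own reverse complement, was found in *MTW1* and *CNN1* and in 6.33% of all genes. The forms CGCGAAA and CACGAAA of the SCB element were found in *SPC24* alone among the members and in 6.45% and 8.33% of all genes. A match is a string of letters and not a measured binding site, and for most members the 600 bases run into the neighbouring gene. The *NNF1* matches to GGCGGC and CACAAA, at 413 and 348 bases, lie inside its neighbour *PXP2*, which is 323 bases away. The *CNN1* CACAAA (207 bases) lies inside *BNA6* (119 bases away), and the *SPC24* CACGAAA (450 bases) inside *SHH3* (252 bases away).

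*NDC80* had the highest value of the 10 genes in 15 of the 35 conditions other than the reference. In the mutant with both Pzev promoters its log2 level was 0.32 at 0 h, 1.61 at 2 h, 1.74 at 4 h, 1.46 at 6 h, 1.88 at 8 h and 2.68 at 12 h. In wild type with both Pzev promoters it was at 0.95, 2.31, 2.87, 3.10, 3.34 and 3.52 at the same times. The values of the mutant were below those of wild type at all 6 times on the deposited scale, but under quantile normalization that at 12 h turned, at 1.83 in the mutant and 1.35 in wild type.

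The share of all genes above *NDC80* was 3.08% at 12 h in the mutant, against 5.90% in wild type, and 4.71% at 4 h in the mutant, against 2.65% in wild type, so the order of the genotypes by rank turned between those times. In wild type the level went on upward after 4 h on the deposited scale, while its rank among all genes was best at 4 h. Under quantile normalization the wild type level was 1.35 at 12 h, against 1.97 at 4 h, so the later increase turns into a decrease.

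With Pzev-*IME1* alone the levels were lower than with both Pzev promoters at every time in both genotypes, except that at 12 h in wild type the order turned under quantile normalization, at 1.35 with both promoters and 1.56 with Pzev-*IME1*. *NDC80* was at 0.01, 0.89, 0.78, 0.98, 1.12 and 1.76 in the mutant, and at 0.68, 0.82, 1.14, 1.16, 1.35 and 2.12 in wild type. With endogenous promoters it was at -0.05, 0.54, 0.63, 0.70, 0.47 and 0.54 in the mutant, and at 0.67, 0.42, 0.13, 0.48 and 0.36 from 2 to 12 h in wild type. On the deposited scale all 10 members stayed within 2-fold of the reference in both genotypes with endogenous promoters, 0 of 50 values from 2 to 12 h in each, against 6.08% of all genes in the mutant and 8.35% in wild type. Under quantile normalization some passed 2-fold. In the mutant *SPC24* was between 1.15 and 1.54 from 2 to 12 h, and *NDC80* at 1.10 and 1.20 at 4 and 6 h. In wild type *SPC24* was at 1.61 and 1.15 at 2 and 8 h, and *NDC80* at 1.18 at 2 h.

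**Figure D1:**
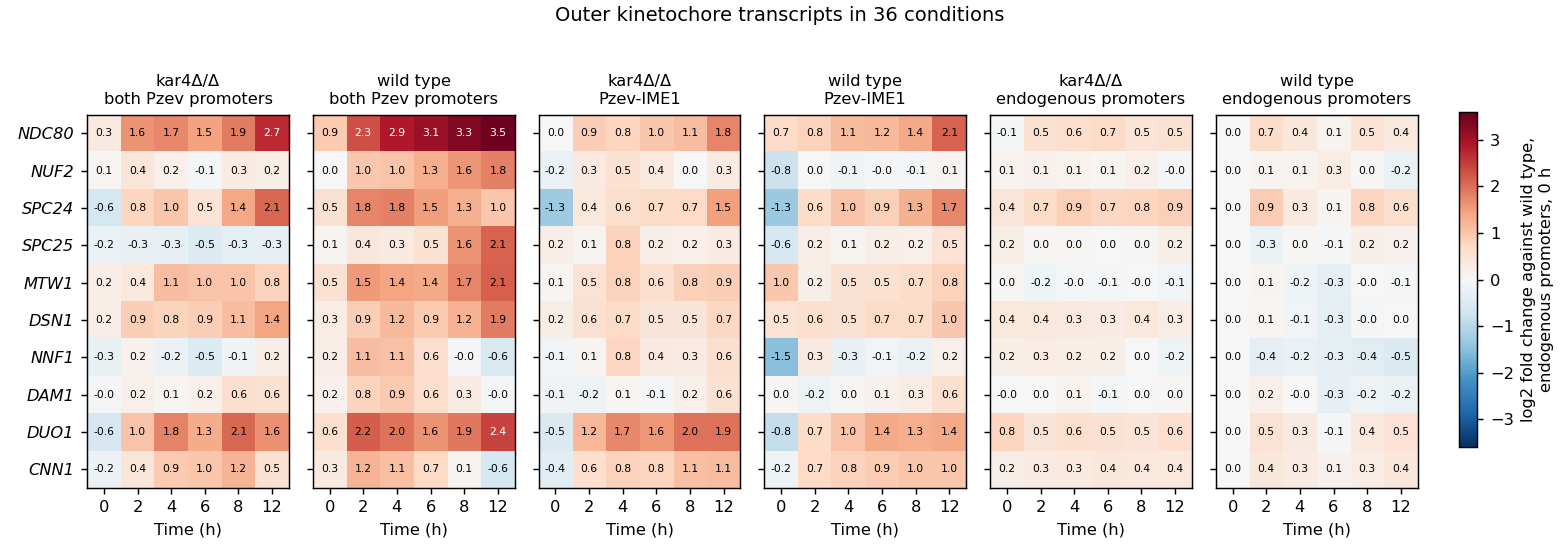
Log2 fold change of the 10 genes (rows) at 6 times (columns, in h) in the 6 strains, against the reference condition (wild type, endogenous promoters, 0 h). Each cell is the authors' value from 2 replicates, so no error can be drawn. *NDC80* in wild type with both Pzev promoters, up to 3.52, is the highest value, and on this scale all cells with endogenous promoters are within 2-fold of the reference.

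The partners of *NDC80* did not share one time course. In the mutant with both Pzev promoters *SPC24*, whose product pairs with Spc25p in the docking end, was at -0.63, 0.78, 0.99, 0.49, 1.38 and 2.06, with its highest value at 12 h. *NUF2*, whose product pairs with Ndc80p, stayed between -0.06 and 0.44, and *SPC25* between -0.49 and -0.23.

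In wild type with both Pzev promoters the order was another one. *SPC24* was at 0.54, 1.75, 1.81, 1.52, 1.29 and 0.96, with its highest value at 4 h (at 2 h under quantile normalization, 1.37). *NUF2* was at 0.02, 0.97, 1.03, 1.30, 1.58 and 1.83. *SPC25* was at 0.09, 0.41, 0.32, 0.55, 1.61 and 2.11, so its increase came after 6 h. The genes of one heterodimer thus took opposite courses after 4 h in wild type, where the change (12 h minus 4 h) was 1.79 for *SPC25* and -0.84 for *SPC24*, and 0.57 and -0.85 under quantile normalization. At 12 h *NDC80* and *SPC24* were over 2-fold above the reference in the mutant and the other subunit genes of the complex were not, while *NDC80*, *NUF2* and *SPC25* were so in wild type and *SPC24* was just below that size.

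With Pzev-*IME1*, *SPC24* was the partner closest to *NDC80* from 2 h on, except at 4 h in the mutant, where *SPC25* was closer. It was at -1.30, 0.38, 0.62, 0.67, 0.73 and 1.49 in the mutant, and at -1.34, 0.65, 1.03, 0.87, 1.28 and 1.73 in wild type. *NUF2* stayed between -0.24 and 0.54 in the mutant and between -0.78 and 0.10 in wild type. *SPC25* stayed between 0.09 and 0.82 in the mutant and between -0.58 and 0.53 in wild type.

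Set against the mean of its 3 partners, *NDC80* was higher in 34 of 35 conditions and at least 2-fold higher in 13. It was the highest of the 4 subunit genes in 23 conditions. All 35 values share one reference condition, so they are not separate observations of this excess. With each strain set against its own 0 h, which leaves out the 0 h conditions that the 23 include, *NDC80* was the highest in 12. From 2 to 12 h with both Pzev promoters the excess over the partner mean was between 1.29 and 2.02 in the mutant and between 1.27 and 1.98 in wild type, so the ranges of the genotypes overlapped almost fully. Under quantile normalization it was between 1.10 and 1.38 in the mutant and between 0.72 and 1.26 in wild type. With Pzev-*IME1* it was between 0.12 and 1.07 in the mutant and between 0.52 and 1.33 in wild type. With endogenous promoters it was between 0.15 and 0.42 in the mutant and between 0.04 and 0.41 in wild type, and *SPC24* was the highest of the 4 in most of those conditions. At 0 h the excess was 1.58 in wild type and 0.45 in the mutant with Pzev-*IME1*, and 0.73 and 0.59 with both Pzev promoters. Under quantile normalization these 0 h values were 1.36, 0.33, 1.22 and 0.64. In wild type with Pzev-*IME1* the 0 h value was above all later ones on both scales. The single negative value, -0.31, belongs to the 0 h condition of the mutant with endogenous promoters, whose label *KAR4* does not bear out. Under quantile normalization *NDC80* was likewise above the partner mean in 34 conditions, and at least 2-fold above it in 10.

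**Figure D2:**
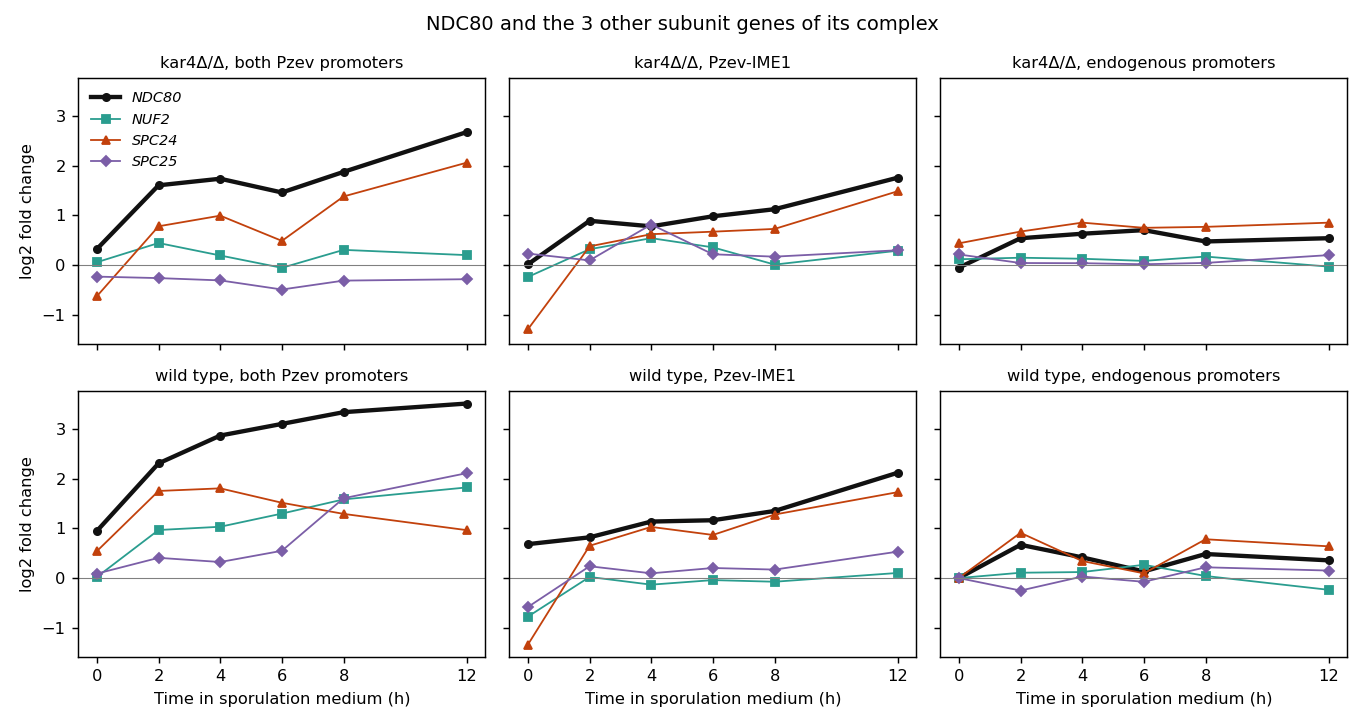
Log2 fold change of *NDC80* and of *NUF2*, *SPC24* and *SPC25* against hours in sporulation medium, the mutant in the upper row and wild type in the lower, 1 value per point from 2 combined replicates. With both Pzev promoters *NDC80* lies above all 3 partners at every time in both genotypes. *SPC24* has its highest value at 12 h in the mutant and at 4 h in wild type (at 2 h under quantile normalization).

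The MIND genes also split. *MTW1* and *NNF1* encode subunits that pair with each other, and Dsn1p is the subunit that Aurora B phosphorylates. In the mutant with both Pzev promoters the 3 genes were 1.19 apart at 12 h, against 1.32 at 4 h, when *MTW1* was at 1.11, *DSN1* at 0.81 and *NNF1* at -0.20. In wild type with both, *MTW1* was at 0.55, 1.55, 1.43, 1.36, 1.74 and 2.15, and *DSN1* at 0.26, 0.90, 1.16, 0.95, 1.25 and 1.88. *NNF1* was at 0.24, 1.10, 1.06, 0.61, -0.04 and -0.55. The 3 genes were thus 2.70 apart at 12 h in wild type, against 0.37 at 4 h. Under quantile normalization the spread was 0.84 at 12 h and 1.20 at 4 h in the mutant, and 1.07 at 12 h and 0.26 at 4 h in wild type, so the genotypes were close at 12 h on that scale.

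Of the DASH genes, *DUO1* was above *DAM1* at every time from 2 h on in all 6 strains. In the mutant with both Pzev promoters *DUO1* was at -0.61, 1.04, 1.78, 1.34, 2.08 and 1.64, and *DAM1* at -0.03, 0.18, 0.08, 0.19, 0.61 and 0.55. In wild type with both Pzev promoters *DUO1* was at 0.57, 2.18, 1.96, 1.61, 1.90 and 2.42, and *DAM1* at 0.16, 0.80, 0.94, 0.64, 0.31 and -0.05. With Pzev-*IME1* alone *DUO1* was at 1.18, 1.72, 1.56, 1.96 and 1.95 from 2 to 12 h in the mutant, and at 0.65, 1.03, 1.38, 1.32 and 1.37 in wild type.

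*CNN1*, the inner kinetochore receptor that recruits the Ndc80 complex on a path separate from MIND, was at -0.22, 0.45, 0.93, 0.99, 1.22 and 0.54 in the mutant with both Pzev promoters. In wild type with both it was at 0.32, 1.23, 1.10, 0.72, 0.11 and -0.64. Its highest value was thus at 8 h in the mutant and at 2 h in wild type. With Pzev-*IME1* it was at 1.11 at 12 h in the mutant and at 1.00 in wild type.

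Counted over the 10 genes, 2, 3, 3, 6 and 4 were at least 2-fold above the reference at 2, 4, 6, 8 and 12 h in the mutant with both Pzev promoters. In wild type with both Pzev promoters the counts were 6, 8, 5, 7 and 6. Of the 50 values from 2 to 12 h, 0 were 2-fold below it in either genotype, against 12.4% over all genes in the mutant and 18.1% in wild type. Of all 6496 genes, 9.87%, 11.6%, 10.3%, 13.2% and 17.2% were 2-fold above it in the mutant, and 15.1%, 17.2%, 18.3%, 23.4% and 27.8% in wild type. With Pzev-*IME1*, 10 of the 50 values from 2 to 12 h were at least 2-fold above the reference in the mutant, against 11.5% of all genes, and 11 of 50 in wild type, against 10%. There too 0 were 2-fold below it, against 9.41% of all genes in the mutant and 6.58% in wild type. *DUO1*, *NDC80* and *SPC24* gave most of these values, with *CNN1* in the mutant.

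The effect of the *kar4* deletion was compared within each promoter background. With endogenous promoters none of the 60 differences over 10 genes and 6 times reached 2-fold, and they lay between -0.24 and 0.77. The highest was *DUO1* at 0 h, where *KAR4* does not bear out the label of the mutant. From 2 to 12 h the highest was 0.65. Over all genes and all 6 times, 3.3% of differences reached 2-fold in either direction. With Pzev-*IME1*, 2 of the 60 differences were at least 2-fold higher in the mutant, against 3.54% over all genes, and 0 were lower, against 4.96%. Both were *NNF1*. It was at -0.10 in the mutant and -1.50 in wild type at 0 h, and at 0.75 in the mutant and -0.28 in wild type at 4 h. *NDC80* itself differed by -0.36 at 12 h.

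With both Pzev promoters the differences were larger. The genotypes already stood apart at 0 h in the driven genes and in *IME2*, an early meiotic kinase gene that Ime1p activates. There *IME1* was at 1.41, *RIM4* at 0.23 and *IME2* at -0.04 in the mutant, against 3.03, 3.21 and 4.36 in wild type, and the part of this in the differences of the members was not tested. Of the 60 differences, 17 were at least 2-fold lower in the mutant, against 12.1% over all genes, and 3 at least 2-fold higher, against 9.31%. Without 0 h the counts were 15 and 3 of 50. Time by time, 2, 2, 2, 5, 3 and 3 members were lower, against 5.99%, 6.31%, 6.40%, 11.1%, 17.6% and 25.2% of all genes. At 12 h, 3 of 10 is near the share of all genes. At 6 h the 5 lower members were *NDC80*, *NUF2*, *SPC24*, *SPC25* and *NNF1*, which include the whole Ndc80 complex, and their differences stayed negative under quantile normalization, at -0.43, -0.85, -0.43, -0.82 and -0.87. The difference of *SPC24* was already -1.17 at 0 h, against -1.03 at 6 h, so it turns positive with each strain set against its own 0 h. At 2 h and at 4 h all 10 members had a negative difference, with medians of -0.74 and -0.72, where the medians of all genes were -0.01 and -0.02. Under quantile normalization *DSN1* at 2 h and *MTW1*, *DUO1* and *CNN1* at 4 h turn positive, at 0.20, 0.04, 0.22 and 0.12, and over all times 4 values were 2-fold lower in place of 17, 3 of them at 0 h. With each strain set against its own 0 h, *SPC24* and *DUO1* at 2 and 4 h and *CNN1* at 4 h turn positive. The 0 h differences of these genes were -1.17, -1.18 and -0.54.

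The difference for *NDC80* between the mutant and wild type was -0.63, -0.70, -1.13, -1.64, -1.46 and -0.84 over the 6 times with both Pzev promoters. It was widest at 6 h and narrower at 12 h. Under quantile normalization the values were -1.17, -0.32, -0.47, -0.43, -0.05 and 0.48, so the direction from 0 to 6 h holds in both (at 0 h between conditions that already differed in *IME1* and *RIM4*), the difference at 8 h is close to 0, and that at 12 h turns.

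Late in the course the members parted into genes lower and genes higher in the mutant. *SPC25* was at -0.29 in the mutant and 2.11 in wild type at 12 h, a difference of -2.40 (-0.99 under quantile normalization). *NUF2* was at 0.20 in the mutant and 1.83 in wild type, a difference of -1.63 (-0.57 under quantile normalization). *MTW1* was at 0.82 in the mutant and 2.15 in wild type, a difference of -1.33 (-0.26 under quantile normalization). These 3 genes were lower in the mutant on both scales.

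In the other direction, *CNN1* was at 0.54 in the mutant and -0.64 in wild type at 12 h, a difference of 1.18 (0.66 under quantile normalization). *SPC24* was at 2.06 in the mutant and 0.96 in wild type, a difference of 1.10 (1.04 under quantile normalization). *NNF1* differed by 0.77 and *DAM1* by 0.60, and by 0.39 and 0.40 under quantile normalization. These 4 genes were higher in the mutant at 12 h on both scales. All 4 had been lower at 2 and 4 h on these scales, with the sole exception of *CNN1* at 4 h under quantile normalization. With each strain set against its own 0 h, *SPC24* at 2 and 4 h and *CNN1* at 4 h were not lower. At 12 h, 17.9% of all genes were at least 2-fold higher in the mutant. *DSN1* at -0.46 and *DUO1* at -0.78 turn to 0.26 and 0.22 under quantile normalization, and *DUO1* also turns, to 0.40, when each strain is set against its own 0 h.

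**Figure D3:**
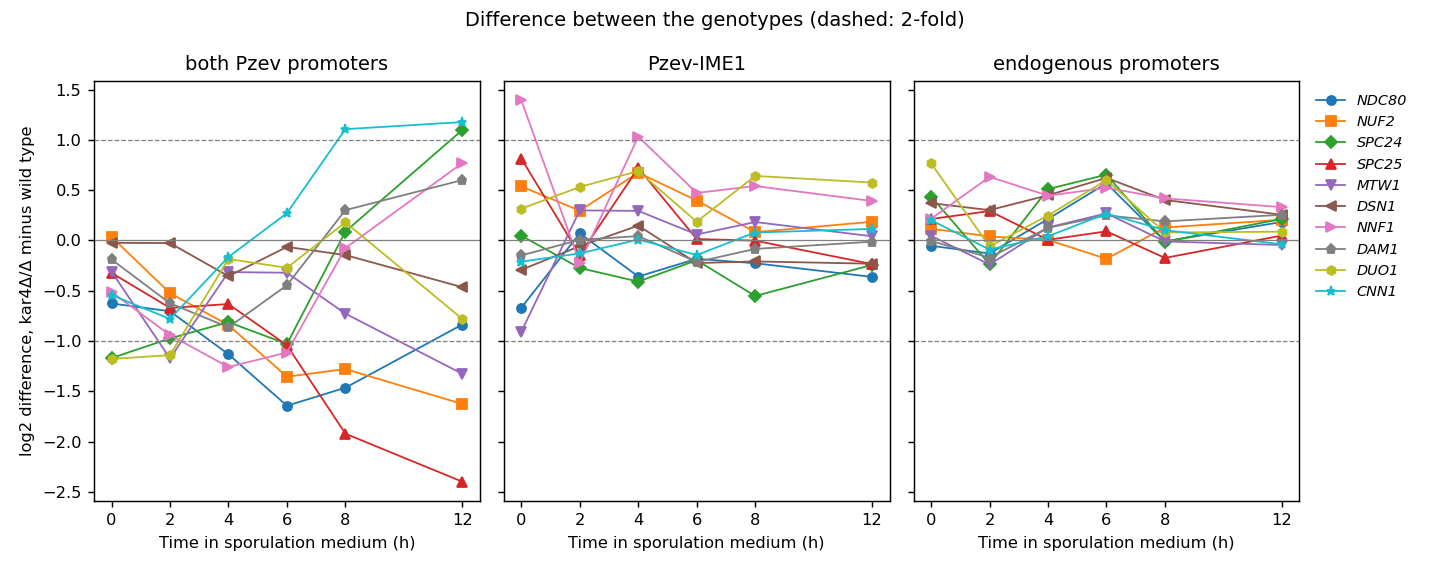
Log2 difference of the mutant minus wild type for the 10 genes against hours in sporulation medium, by promoter background, with dashed lines at 2-fold. The 60 differences with endogenous promoters lie within the lines. With both Pzev promoters *SPC25*, *NUF2* and *MTW1* are below -1 at 12 h and *CNN1* and *SPC24* above 1, while *NDC80*, *DSN1* and *DUO1*, below 0 there, turn positive under quantile normalization.

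The 4 genes that ended higher in the mutant are those whose wild type level at 12 h lay below that at 4 h on the deposited scale. Both quantities use the same wild type value at 12 h, so this match is partly built in. With both Pzev promoters, the change over those hours (12 h minus 4 h) was -0.39 for *CNN1*, 0.42 for *NNF1*, 0.47 for *DAM1* and 1.07 for *SPC24* in the mutant, and -0.49, 0.33, 0.30 and 0.50 under quantile normalization. In wild type it was -1.73 for *CNN1*, -1.61 for *NNF1*, -0.99 for *DAM1* and -0.84 for *SPC24*, and -1.03, -0.96, -0.67 and -0.85 under quantile normalization. Of the 10 members, 0 had a change of at least 2-fold down over those hours in the mutant and 1 of at least 2-fold up, against 7.76% and 6.76% of all genes. In wild type the counts were 2 and 1, against 18.8% and 24.5% of all genes.

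The other 6 members had a positive change in wild type over the same hours on the deposited scale, but under quantile normalization only *SPC25* was clearly so. In the mutant *NDC80* differed by 0.94 (0.32 under quantile normalization) and *SPC25* by 0.02 (0.10) between these times. In wild type the change was 1.79 for *SPC25*, 0.79 for *NUF2*, 0.72 for *MTW1*, 0.71 for *DSN1*, 0.65 for *NDC80* and 0.46 for *DUO1*, and under quantile normalization 0.57 for *SPC25*, 0.00 for *NUF2*, -0.16 for *MTW1*, -0.07 for *DSN1*, -0.62 for *NDC80* and -0.41 for *DUO1*. *NDT80*, the middle meiotic activator, was at 1.27 at 12 h in the mutant with both Pzev promoters, against 0.00 at 4 h. In wild type it was at 6.04 at 12 h, against 2.66 at 4 h. *CLB3*, a B-type cyclin gene of the Ndt80p program, was at 1.21 at 12 h in the mutant and 4.88 in wild type. *IME1* and *RIM4* went the other way in wild type, with *IME1* at 1.93 at 12 h, against 3.94 at 4 h, and *RIM4* at 3.35, against 4.61. In the mutant *IME1* was at 3.41 at 12 h, against 3.57 at 4 h, and *RIM4* at 4.48, against 4.37 (3.17 and 3.50 under quantile normalization). The part of these genes in the late changes of the members was not tested.

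**Figure D4:**
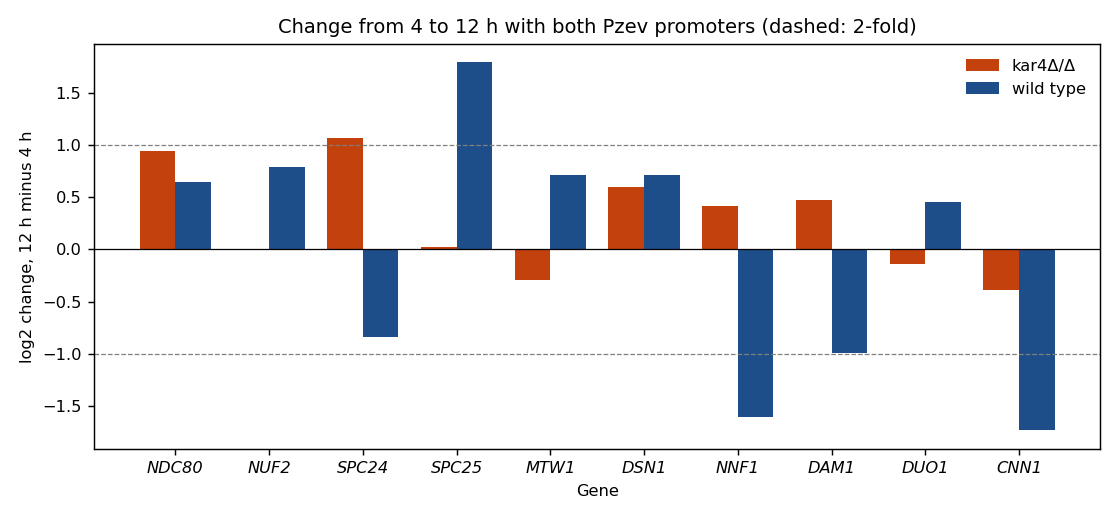
Log2 change of each gene between 4 and 12 h (12 h minus 4 h) with both Pzev promoters, in the mutant (left bars) and wild type (right bars), 1 value per bar from combined replicates. *SPC24*, *NNF1* and *DAM1* are negative in wild type and positive in the mutant on both scales. The positive wild type bars of *NDC80*, *NUF2*, *MTW1*, *DSN1* and *DUO1* are at or below 0 under quantile normalization, and *SPC25* stays positive.

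The effect of the promoters was compared within each genotype. Strains with both Pzev promoters were set against Pzev-*IME1* strains. The difference is not one of *RIM4* level alone. In the mutant *RIM4* was at 4.37 at 4 h and 4.48 at 12 h with both Pzev promoters, against 1.48 and 1.74 with Pzev-*IME1*. At 0 h it was at 0.23 and 0.25 there. In wild type *RIM4* was at 3.21 at 0 h, 4.61 at 4 h and 3.35 at 12 h with both Pzev promoters, against 0.70, 2.99 and 3.72 with Pzev-*IME1*, so it was lower with both at 12 h, and under quantile normalization from 4 h on (3.01 against 3.12 at 4 h). *IME1* in wild type was at 3.03 at 0 h and 1.93 at 12 h with both, against 1.94 and 4.01 with Pzev-*IME1*, and its 0 h order turned under quantile normalization (3.94 against 4.07). In the strain list the Z3EV insertion is homozygous with both Pzev promoters and heterozygous with Pzev-*IME1*, so the dose of the activator and Pzev-*RIM4* cannot be told apart. In the mutant, 0 of 60 differences were at least 2-fold higher and 1 lower, *SPC25* at 4 h, at -0.31 with both promoters induced and 0.82 with Pzev-*IME1* alone. Over all genes 4.93% were higher and 6.79% lower there. In wild type, 21 of 60 were higher and 1 lower, against 15.1% and 13.3% over all genes, but under quantile normalization 4 were higher, 3 of them at 0 h, and 1 lower. For *NDC80* the differences at 4, 6 and 8 h were 1.73, 1.94 and 1.99, the largest of the 10 genes on the deposited scale, and 0.69, 0.64 and 0.21 under quantile normalization, where *NUF2* exceeded it at all 3 times, at 0.84, 0.84 and 0.82. At 12 h its difference of 1.39 turned to -0.22 under quantile normalization. For *NUF2* the direction held on both scales at 12 h, at 1.83 with both promoters induced and 0.10 with Pzev-*IME1* alone (a difference of 1.72, and 0.60 under quantile normalization). *CNN1* was lower at 12 h by both scales, at -0.64 with both promoters induced and 1.00 with Pzev-*IME1* alone (a difference of -1.63, and -1.07 under quantile normalization). The difference between the genotypes in these promoter differences was not tested.

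For Pzev-*IME1* against endogenous promoters, the share of member differences at least 2-fold higher was near that over all genes. In the mutant, 5 of 60 were higher and 2 lower, against 8.36% and 9.01% over all genes, and in wild type 4 were higher and 2 lower, against 7.41% and 7.85%. The lower ones were all at 0 h, *SPC24* and *DUO1* in the mutant and *SPC24* and *NNF1* in wild type, and under quantile normalization 2 were lower in the mutant and 0 in wild type. In the mutant they were set against the 0 h condition whose label *KAR4* does not bear out. *DUO1* was at -0.53 with Pzev-*IME1* and 0.77 in that condition, so it was within 2-fold of the reference condition. *SPC24* was at -1.30 with Pzev-*IME1* and 0.44 in that condition. At 12 h the higher members were *DUO1* (1.35) and *NDC80* (1.22) in the mutant. In wild type they were *NDC80* (1.77) and *SPC24* (1.09). Under quantile normalization these 4 differences were 0.78, 0.64, 1.04 and 0.43.

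As a description of likeness, Pearson's r of each gene with *NDC80* was taken over the 35 conditions, which share one reference condition and, along each time course, one strain. The 5 genes most like *NDC80* were *KIP1*, which encodes a kinesin-5 motor of the spindle (r = 0.96), *YKR005C* (0.96), *YBR184W* (0.96), *VID22* (0.96) and *LIN1* (0.96). Among 6495 genes, the nearest members were *DSN1*, in place 123 (r = 0.89), and *MTW1*, in place 146 (r = 0.89). The subunit genes of its own complex came later: *NUF2* in place 550 (r = 0.77), *SPC24* in place 961 (r = 0.66) and *SPC25* in place 1483 (r = 0.52). *NNF1* and *CNN1* were the least alike of the members, at r = 0.29 and 0.25. Without the strains with both Pzev promoters r with *NDC80* was 0.12 for *NUF2* and 0.82 for *CNN1*. The genes most like the mean of *NUF2*, *SPC24* and *SPC25* were another set: *VIK1* (r = 0.95) and *CIK1* (0.94), which encode the partners of the kinesin-14 Kar3p, *SGO1* (0.93), the shugoshin gene that guards centromeric cohesion, *BIM1* (0.93), the EB1 microtubule plus-end gene, and *SPC98* (0.92), a γ-tubulin complex gene. Without the strains with both Pzev promoters r was 0.50 for *VIK1*, 0.73 for *CIK1*, 0.79 for *SGO1*, 0.51 for *BIM1* and 0.39 for *SPC98*.

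Other kinetochore genes were followed as lists at 12 h with both Pzev promoters, where 25.2% of all genes were at least 2-fold lower in the mutant and 17.9% higher. Of 8 other DASH genes, 4 were lower and 0 higher, with a median difference of -1.41 (-0.64 under quantile normalization, with 2 lower), where the median of all genes was -0.01. They ran from *DAD3* at -3.95 to *DAD1* at 0.36. Of the 4 monopolin genes, which make sister kinetochores attach to the same pole in meiosis I, 3 were lower (1 under quantile normalization), from *MAM1* at -4.07 to *LRS4* at 0.33. The 14 inner kinetochore genes went both ways, with 5 lower and 2 higher (0 and 2 under quantile normalization), from *WIP1* at -2.62 to *CTF3* at 2.39. Of the 4 genes of the centromere-binding CBF3 complex, 1 was lower and 2 higher (0 and 0 under quantile normalization), from *SKP1* at -1.34 to *CTF13* at 1.23. Of 10 spindle checkpoint, Aurora B and shugoshin genes, 3 were lower and 1 higher (0 and 3 under quantile normalization), from *SGO1* at -3.23 to *MAD1* at 1.23. None of the 3 other MIND and Spc105 genes reached 2-fold on either scale, from *KRE28* at -0.80 to *SPC105* at 0.38. The genes named here had the same sign on both scales, with *MAM1* at -0.37 and *SGO1* at -0.65 under quantile normalization.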

How the data were processed

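RNA from 72 libraries (36 conditions, 2 replicates each) was sequenced with paired ends. The authors mapped reads to sacCer3 with BWA-MEM, counted them per gene with htseq-count and ran DESeq2 in Galaxy (versions and strand setting not given in the sources used here). The deposited values are the authors' log2 fold change of each condition against one reference, wild type at 0 h with unaltered promoters, with the replicates combined. How low counts were handled, and whether fold changes were shrunk, is not given, and either would change the size of low genes.

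Of 6660 genes, 164 lacked a value in some column and were left out. The 16 unnamed columns were not used. Differences between conditions were taken by subtraction. With 1 value per condition the planned tests became descriptions, with 2-fold counted and no p-value. The members and gene lists were chosen with earlier results of these data known. Genes named are the 10 members, *KAR4*, *NDT80* and *CLB3* as context, the lowest and highest of each other list, and the 5 genes with the highest Pearson's r to *NDC80* and to its partners' mean. The alternatives were quantile normalization, median centring, 1.5-fold and 4-fold sizes, the partners' median, Spearman's correlation, and leaving out the strains with both Pzev promoters. Added after seeing the data were each strain's own 0 h as reference, leaving out 0 h, a motif window of 1000 bases and the longer element GNCACAAA. All 10 members matched the R64 annotation by locus tag. The counting step was tested on the deposited values of 1 condition, with simulated noise and known differences added. Python 3.11.15, numpy 2.4.6, pandas 2.3.3, Biopython 1.88 and matplotlib 3.10.9 were used.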

Additional observations from a re-analysis of the deposited data

Results flagged for a closer look

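*NNF1* at 4 h differed between *kar4*Δ/Δ and wild type in opposite directions by promoter background: the log2 difference was 0.45 with endogenous promoters and 1.03 with Pzev-*IME1*, but -1.26 with both Pzev promoters (-0.91 under quantile normalization). At 0 h the differences of *NNF1* were already 0.22, 1.40 and -0.51 in the same order of backgrounds. With each strain set against its own 0 h, the 4 h difference with Pzev-*IME1* thus turns negative, the sign it has with both Pzev promoters. *NNF1* was picked out because the signs at 4 h are opposite on the deposited scale, each value combines 2 replicates, and the difference between the backgrounds was not tested.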

How the results depend on the processing

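No paired analysis was possible because each column combines its replicates, and for the same reason no replicate could be left out. Centring on column medians and the partners' median moved no count by over 1.5 times and turned no direction among the results recomputed. Under quantile normalization the members 2-fold above the reference in wild type with both Pzev promoters at 12 h were 1 (6 as deposited). The *kar4*Δ/Δ minus wild type values 2-fold apart over all times were 3 higher with endogenous promoters, 1 lower and 1 higher with Pzev-*IME1*, and 4 lower and 1 higher with both Pzev promoters, with 0 lower and 1 higher at 12 h. The members 2-fold higher at 12 h were 0 in *kar4*Δ/Δ and 1 in wild type for Pzev-*IME1* against endogenous promoters, and 0 in wild type for both Pzev promoters against Pzev-*IME1*. The excess of *NDC80* over its partners in wild type with both Pzev promoters at 12 h was 0.72 (1.88 as deposited).

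At 1.5-fold the genotype counts were 5 higher with endogenous promoters, 2 lower and 7 higher with Pzev-*IME1*, and 31 lower and 5 higher with both Pzev promoters (5 and 4 at 12 h). For the promoters at 12 h, 6 were higher in *kar4*Δ/Δ and 8 in wild type with Pzev-*IME1*, and 2 higher in *kar4*Δ/Δ and 4 lower in wild type with both. At 4-fold the genotype counts were 0 higher with Pzev-*IME1*, and 1 lower and 0 higher with both Pzev promoters (the same at 12 h, *SPC25*), and all promoter counts at 12 h were 0.

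With each strain set against its own 0 h, the genotype counts were 3 lower with Pzev-*IME1* and 7 lower and 6 higher with both Pzev promoters. The promoter counts at 12 h were 5 higher in *kar4*Δ/Δ and 5 in wild type with Pzev-*IME1*, and 3 higher and 3 lower in wild type with both. *NDC80* was then the highest of its complex in 12 conditions, all from 2 to 12 h, where the 23 as deposited include 0 h conditions. Without 0 h, 1 value was higher with Pzev-*IME1*. Of the 5 genes most like *NDC80*, 2 were found again with Spearman's correlation and 1 without the strains with both Pzev promoters. With 1000 bases, CACAAA was found in 8 of 10 members and 51.5% of all genes. Why the results moved was not tested.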
